A study of Rattus norvegicus with 65 samples.

Results

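Tanycytes are elongated glial cells that line the floor and lower walls of the third ventricle and send a process into the arcuate nucleus and median eminence. They are known for carrying leptin and other circulating signals into the mediobasal hypothalamus and for local handling of thyroid hormone. They are usually recognised by Rax, a homeobox transcription factor, by Lhx2, a LIM homeobox transcription factor, and by Gpr50, an orphan receptor related to the melatonin receptors. The other common markers are Crym, the thyroid hormone-binding protein mu-crystallin, and Vim and Nes, which encode the intermediate filament proteins vimentin and nestin. None of the last 3 belongs to tanycytes alone, since Crym is also a neuronal gene and vimentin is abundant in meningeal fibroblasts and vessel walls.

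The 6 genes Rax, Lhx2, Gpr50, Crym, Vim and Nes were taken by symbol from a table of 38513 genes, and each symbol matched 1 row. The table held whole-hypothalamus RNA-seq of 65 male Wistar rats, 1 library per animal, in which rats that had become obese on a high-fat diet were compared after surgery or hormone treatment. Tissue was taken 4 weeks after the intervention following 10 h of fasting, and hypothalami were isolated from frozen brains. The animals came from 2 experimental periods, labelled batch A (37 libraries) and batch B (28 libraries), and levels of the groups are given by batch unless both are named together.

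Roux-en-Y gastric bypass (RYGB) was represented by 14 rats, 11 in batch A and 3 in batch B. Sham-operated rats numbered 11, with 5 in batch A and 6 in batch B, and ate freely from high-fat and low-fat diet as the RYGB-treated rats did. Body weight-matched rats (BWM, 7, batch A) had their food restricted with the aim of matching the weight of RYGB-treated rats. The study's abstract lists this group as sham with body weight matching. A group labelled lean held 6 rats of batch A. Vehicle controls were 8 rats given saline by both routes, 3 in batch A and 5 in batch B. PYY3-36, a gut peptide, was infused at 0.1 mg/kg/day by osmotic minipump in 4 rats of batch B. Liraglutide, a GLP-1 receptor agonist, was injected at 0.4 mg/kg/day in 5 rats of batch B, and 10 rats, 5 in each batch, received both agents. Each hormone arm also received saline by the route it did not use.

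Library totals ran from 20040821 to 36539714 counts, with a median of 27379758, and no 2 libraries held identical values. The labelled tissue was checked by the summed level of 8 hypothalamic genes in counts per 1000000 (CPM). In 11 of 65 libraries this sum lay between 12.2 and 122 CPM, against a median of 1603 CPM over all 65 and a lowest value of 169 CPM in the remainder. Genes of striatum or cortex reached summed levels of 1974 and 1904 CPM among those 11. Library 5 of the BWM group held 76902 CPM of anterior pituitary genes, whereas no other retained library exceeded 1148 CPM. The 12 libraries comprised 3 of 11 sham, 2 of 7 BWM, 2 of 6 lean, 2 of 5 liraglutide, 1 of 8 saline, 1 of 4 PYY3-36 and 1 of 10 combination libraries, and 0 of 14 RYGB libraries. Levels and group means are given with all 65 libraries unless stated otherwise, and the comparisons of the markers are given with and without all 12.

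The markers spanned a wide range of levels. Per kilobase of exon, median levels over 65 libraries were 107 CPM for Vim, 53.7 for Crym, 5.49 for Lhx2, 1.51 for Nes, 1.23 for Gpr50 and 0.130 for Rax. Rax was counted so sparsely that 19 libraries held 0 counts and 35 held 3 counts or fewer, and yet it reached 8.13 CPM in the highest library. The coefficient of variation of the level across libraries was 156% for Rax, 96.4% for Crym, 83.5% for Vim, 71.7% for Lhx2, 71.6% for Gpr50 and 46.1% for Nes. Ordering the groups by mean within each batch, with all 65 libraries, gave 60 pairs of neighbouring groups, and in 5 of them the difference of means exceeded the larger SD of the pair. Those were Crym in saline over RYGB in batch A (73.7 ± 13.6 and 53.7 ± 18.3 CPM) and in PYY3-36 over RYGB in batch B (78.0 ± 22 and 52.8 ± 16.9 CPM), and Vim in saline over the combination in batch B (161 ± 66.9 and 78.7 ± 43.9 CPM). The others were Nes in the combination over sham in batch A (12 ± 3.44 and 8.06 ± 1.70 CPM) and in RYGB over the combination in batch B (10.1 ± 1.96 and 7.92 ± 0.894 CPM). Sham rats held the highest mean of Crym in both batches and the lowest mean of Rax, Gpr50, Vim and Nes in batch A, whereas in batch B saline rats held the lowest means of Rax and Gpr50.

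**Figure D1:**
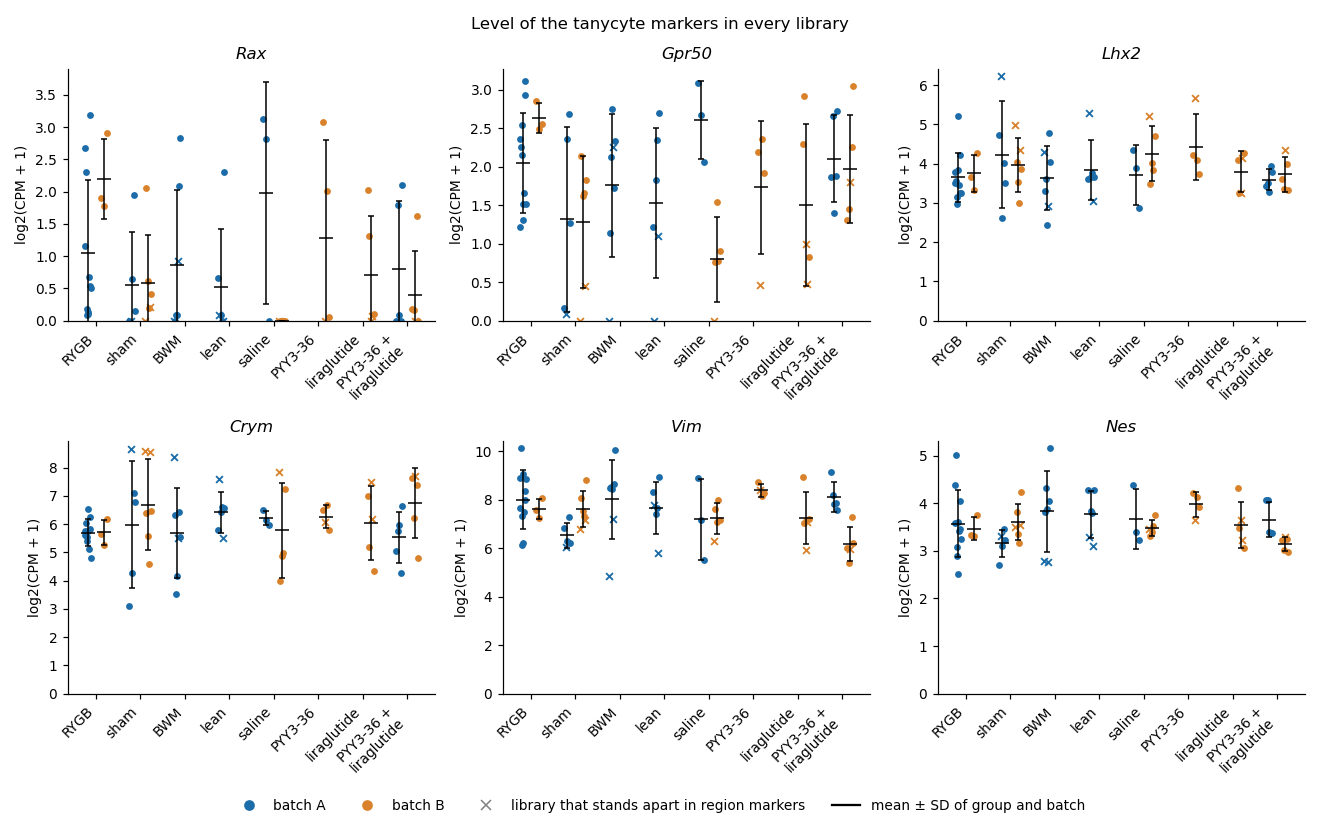
Level of each marker in every library, as log2(CPM + 1), by group and batch. Points are single rats, bars are mean ± SD, and crosses mark the 12 libraries that stood apart in region markers; Rax lies at or near 0 in most libraries, while Vim and Crym spread widely within groups.

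Rax, which directs development of the hypothalamus and the retina and stays on in tanycytes, is annotated at chr18:61638352-61642056 on the minus strand of Rnor_6.0. In RYGB-treated rats it ranged from 0.0678 to 8.13 CPM in batch A (median 0.445 CPM, n = 11) and measured 2.74, 2.44 and 6.50 CPM in batch B. In sham rats the 5 libraries of batch A held 0, 0, 0.559, 2.84 and 0.109 CPM, and the 6 of batch B ran from 0 to 3.14 CPM with a median of 0.246 CPM. The ranges overlapped in both batches. BWM rats held 0 to 6.12 CPM (median 0.0649 CPM, n = 7), and lean rats 0 to 3.91 CPM (median 0.0680 CPM, n = 6).

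The 5 saline libraries of batch B had 0 Rax counts between them, which allows a level of up to 0.0272 CPM over the group (3 counts, counting error only). Mean Rax levels of the other groups of batch B were at least 143-fold (RYGB), 97.0-fold (PYY3-36), 34.4-fold (liraglutide), 26.4-fold (sham) and 17.2-fold (PYY3-36 + liraglutide) higher than that limit. The groups also differed in the summed level of 7 arcuate genes. Its median in batch B was 120 CPM in saline, 311 in RYGB, 254 in PYY3-36, 135 in liraglutide, 243 in sham and 144 in combination libraries. The part of dissection in the Rax levels was not tested. Rax held 3 counts or fewer in 4 of 5 combination, 3 of 5 liraglutide, 3 of 6 sham and 2 of 4 PYY3-36 libraries of batch B. It did so in 0 of 3 RYGB libraries. Outside RYGB these means thus rest on part of the libraries of each group. The saline libraries of batch A went the other way, with 7.74, 6.03 and 0 CPM, the highest group mean of that batch. Within batch B, PYY3-36 vs. saline gave p = 0.00398 and adjusted p = 0.460 for Rax, and sham vs. saline gave p = 0.025 and adjusted p = 0.470 (edgeR), beside 0.00457% and 0.0229% of all genes passing. The change of sham vs. saline between batches had p = 0.0075 and adjusted p = 0.274 (edgeR). None passed over all genes.

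Gpr50 (chr17:36771578-36776225, plus strand, Rnor_6.0) was detected in 61 of 65 libraries. Its annotation lies inside Cdkal1 on the same strand, although its values were whole in all 65 libraries. RefSeq on the later build GRCr8 places Gpr50 on chromosome X, so the position in the files' build is uncertain. RYGB-treated rats held 1.32 to 7.66 CPM in batch A (median 3.44 CPM, n = 11) and 6.23, 4.61 and 4.89 CPM in batch B. Sham rats held 0.126, 0.0661, 4.16, 5.43 and 1.42 CPM in batch A and 0, 3.40, 2.08, 2.17, 0.363 and 2.55 CPM in batch B. All 3 RYGB libraries of batch B thus lay above all 6 sham libraries, whereas the groups overlapped in batch A. How many of all genes separate in this way was not counted. Within batch B the log2 fold change was 1.56 with an adjusted p = 0.322 (edgeR), in a comparison where 2.74% of 21871 tested genes passed. There 4769 genes and 0 of 6 markers had an unadjusted p under 0.05.

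Lhx2 (chr3:22628674-22658447, plus strand, Rnor_6.0), which acts with Rax in forebrain and eye development and is also a cortical gene, was present in every library. RYGB-treated rats held 6.88 to 36.3 CPM in batch A (median 10.4 CPM, n = 11) and 11.8, 9.07 and 18.2 CPM in batch B. In sham rats of batch A it measured 25.8, 74.3, 5.18, 15.3 and 10.4 CPM, and in batch B it ran from 6.95 to 30.9 CPM (median 14.5 CPM, n = 6). The groups overlapped in both batches, and the highest sham value of each batch came from a library with few hypothalamic transcripts. Among RYGB-treated rats the highest value of batch A came from library 6, which was rich in cortical genes and is not among the 12 libraries.

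Crym (chr1:189944895-189960069, minus strand, Rnor_6.0) binds triiodothyronine in the cytosol. It spanned 27.0 to 91.6 CPM in RYGB-treated rats of both batches (53.5 ± 17.4 CPM, SD, n = 14) and 7.61 to 400.0 CPM in sham rats of both batches (152 ± 156 CPM, SD, n = 11). The RYGB libraries of both batches lay inside the sham range. The sham values of batch A were 7.61, 400.0, 18.4, 135 and 109 CPM, and those of batch B were 387, 82.3, 46.3, 23.0, 371 and 87.1 CPM. The 3 highest sham values belonged to the 3 sham libraries that stood apart, and the other 8 of both batches averaged 63.6 ± 46.6 CPM (SD). The annotation of Crym overlaps that of Thumpd1 on the same strand, and its values were not whole in 2 libraries.

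Vim (chr17:80882715-80891200, plus strand, Rnor_6.0) was the most abundant marker per kilobase. RYGB-treated rats held 68.6 to 1135 CPM in batch A (median 254 CPM, n = 11) and BWM rats 27.9, 358, 371, 346, 146, 403 and 1064 CPM. The 5 sham rats of that batch held 113, 65.4, 77.9, 155 and 73.2 CPM. In this batch 9 of 11 RYGB libraries exceeded the highest sham library, and the groups overlapped through the remaining 2. In batch B the order was not seen, with RYGB at 193, 151 and 266 CPM and sham at 110 to 455 CPM (median 174 CPM, n = 6).

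Nes (chr2:187343109-187352972, plus strand, Rnor_6.0) varied least. It spanned 4.70 to 31.2 CPM in RYGB-treated rats of batch A (median 9.99 CPM, n = 11), 5.82 to 34.8 CPM in BWM rats (median 13.8 CPM, n = 7) and 5.47 to 10.01 CPM in sham rats (median 8.32 CPM, n = 5). In batch B the RYGB libraries held 9.05, 8.96 and 12.4 CPM and the sham libraries 8.02 to 17.8 CPM (median 10.5 CPM, n = 6). All of these ranges overlapped.

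The contrast of RYGB vs. sham asks what bypass surgery changed in the hypothalamus, and BWM vs. sham asks the same of weight loss by food restriction. In the model with all 65 libraries and a batch term, 0 of 6 markers passed an adjusted p of 0.05 for RYGB vs. sham (edgeR), and 2 had an unadjusted p under 0.05. Over all genes 2853 of 21871 passed, or 13%. With saline in place of sham rats as the control of RYGB, 1 gene (0.00457%) and 0 of 6 markers passed, and 0 markers had an unadjusted p under 0.05 (edgeR). The 2 markers were Crym, lower by a log2 fold change of -1.32 ± 0.48 (SE, adjusted p = 0.058), and Lhx2, at -0.68 (adjusted p = 0.139). Crym passed in DESeq2 (-1.29, adjusted p = 0.038), where 15.6% of genes passed and Crym was the only marker to do so. The other estimates were 1.54 ± 1.08 for Rax, 0.89 ± 0.58 for Gpr50, 0.67 ± 0.48 for Vim and 0.19 ± 0.25 for Nes (log2 fold change ± SE, adjusted p from 0.311 to 0.632).

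The Crym and Lhx2 differences shrank when the libraries that stood apart were left out. This choice was made after seeing the data and removed 3 of 11 sham and 0 of 14 RYGB libraries. It rests mostly on hypothalamic genes, which ran opposite to Crym (r = -0.52) and Lhx2 (r = -0.55) over 65 libraries. The smaller differences are therefore no independent test. RYGB library 6 was retained, with a mean log2(CPM + 1) of cortical genes of 6.20. Sham library 2, which was left out, had 6.08. Leaving out RYGB library 6 alone gave -0.87 for Lhx2 (adjusted p = 0.044) and -1.39 for Crym (adjusted p = 0.042) by edgeR. Without those 12 libraries the log2 fold change of Crym was -0.21 ± 0.43 (SE, adjusted p = 0.792) and that of Lhx2 0.01 ± 0.27 (SE, adjusted p = 0.992) by edgeR. For the other markers the estimates were 1.18 ± 1.13 (Rax), 0.50 ± 0.44 (Gpr50), 0.52 ± 0.49 (Vim) and 0.19 ± 0.26 (Nes). Again 0 of 6 passed, and 0 had an unadjusted p under 0.05, beside 6.05% of 21949 genes. In the 11 libraries with few hypothalamic transcripts the median level was 209 CPM for Crym and 19.5 CPM for Lhx2, compared with 54.8 and 11.8 CPM in the 53 retained libraries. Rax was at 0 in 8 of those 11 libraries and never above 0.155 CPM, and Gpr50 had a median of 0.363 CPM against 3.38 CPM. In bulk tissue, fewer cells of a type and less RNA per cell cannot be told apart.

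For BWM vs. sham 0 of 6 markers passed and 0 had an unadjusted p under 0.05 (edgeR), beside 0.320% of all genes. DESeq2 called 0 of 6 as well. Log2 fold changes ± SE were -0.51 ± 0.60 for Crym, -0.68 ± 0.40 for Lhx2, 0.60 ± 1.35 for Rax, 0.32 ± 0.72 for Gpr50, 0.87 ± 0.58 for Vim and 0.54 ± 0.30 for Nes. Without the 12 libraries 0 of 6 passed and 1, Nes, had an unadjusted p under 0.05, at adjusted p from 0.289 to 0.979, beside 0.0638% of all genes (edgeR). The direct comparison of RYGB vs. BWM also gave 0 of 6 in edgeR and 0 of 6 in DESeq2, with 0 under an unadjusted p of 0.05 in edgeR, where 0.343% of all genes passed. Its adjusted p-values ran from 0.510 to 0.996, with a log2 fold change of -0.81 ± 0.53 (SE) for Crym and 0.94 for Rax. Leaving out the 12 libraries, 0 of 6 passed beside 0.0866% of all genes, and Nes alone had an unadjusted p under 0.05 (-0.66 ± 0.28, SE, adjusted p = 0.286, edgeR). RYGB vs. sham and BWM vs. sham use the same sham libraries, so their estimates are not independent.

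**Figure D2:**
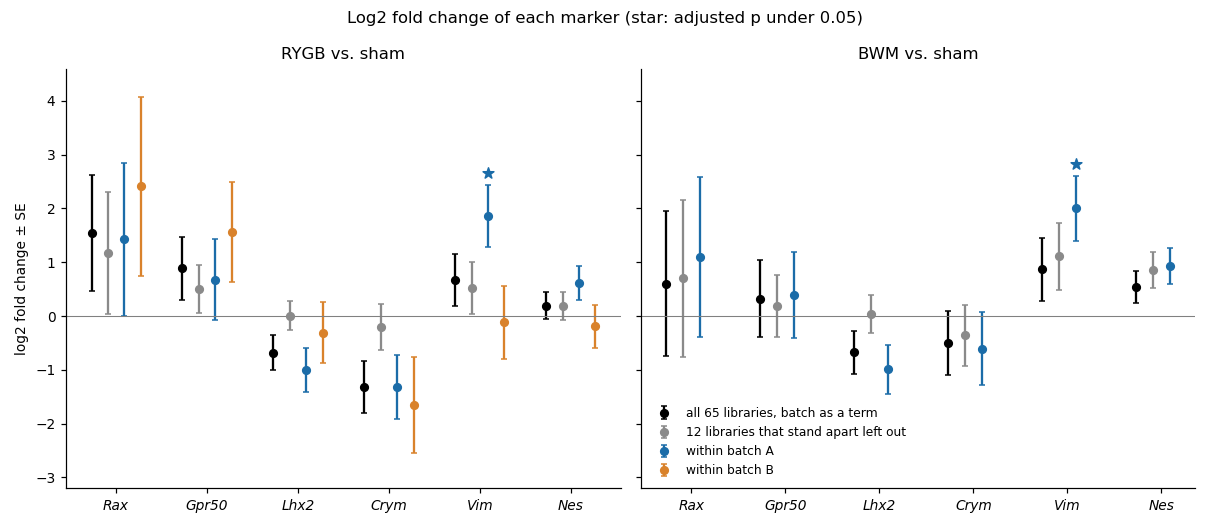
Log2 fold change ± SE of each marker for RYGB vs. sham and BWM vs. sham, with all 65 libraries, with the 12 libraries that stood apart left out, and within each batch (all BWM rats are of batch A). Stars mark an adjusted p under 0.05; Vim within batch A carries one in both comparisons, and the Crym estimate for RYGB moves from -1.32 to -0.21 when the 12 libraries are left out.

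Batches were then fitted separately. Within batch A, Vim was higher in RYGB-treated than in sham rats (log2 fold change 1.86 ± 0.57, SE, adjusted p = 0.033, edgeR) and higher in BWM than in sham rats (2.0 ± 0.60, adjusted p = 0.038). Vim was the only marker to pass in either comparison, beside 8.64% and 5.28% of all genes. Within batch B its estimate for RYGB vs. sham was -0.12, and the change between batches (-1.98 ± 0.90, p = 0.031) did not pass over all genes. Without the 12 libraries Vim in batch A was at 1.76 for RYGB vs. sham (adjusted p = 0.062, 3.68% of all genes). For BWM vs. sham it then rose by 2.29 (adjusted p = 0.026) and Nes by 1.31 ± 0.37 (adjusted p = 0.031), beside 4.29% of all genes (edgeR).

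Meningeal and vascular genes were higher along with Vim within batch A, as were some genes of choroid plexus. Some pituitary genes were higher in BWM rats. Some thalamic genes had lower estimates in RYGB-treated than in sham rats, but the median of their summed level was not lower. Within batch A all 8 of 8 meningeal genes were higher in RYGB-treated and in BWM rats than in sham rats, with median log2 fold changes of 3.55 and 4.12, and 4 and 5 of 9 endothelial and mural genes were higher. Among them were Col1a1 (3.61 for RYGB vs. sham) and Col3a1 (4.07), which encode fibrillar collagens, and Acta2 (3.95), the smooth muscle actin. When the 12 libraries were left out all 8 meningeal genes still passed in both comparisons (medians 3.47 and 4.46), and 1 and 6 of 9 endothelial and mural genes. In the fits with all libraries 3 of 7 choroid plexus genes were also higher in both, among them the water channel Aqp1 (3.07 for RYGB and 5.32 for BWM). For RYGB vs. sham 3 of 6 genes of thalamus and habenula were lower, among them Gbx2 (-2.48) and Prkcd (-2.01). The summed level of these 6 genes in batch A ran from 25.9 to 783 CPM in sham libraries (median 47.6 CPM). In RYGB libraries it ran from 40.5 to 93.2 CPM (median 53.0 CPM). Sham library 1 had the highest mean log2 level of these genes among sham libraries of batch A. It is not among the 12 libraries, and its part in the lower estimates was not tested. For BWM vs. sham 5 of 9 pituitary genes were higher. The BWM fit held library 5, with 76902 CPM of anterior pituitary genes. The summed meningeal level in batch A was 110 to 3504 CPM in RYGB libraries (median 551 CPM), 90.7 to 3340 CPM in BWM libraries (median 1205 CPM) and 65.1 to 114 CPM in sham libraries (median 84.3 CPM). In batch B it was 168 to 200 CPM in RYGB and 135 to 1143 CPM in sham libraries, and in the model of all libraries 0 of 8 meningeal genes passed for RYGB vs. sham in edgeR (1 at an unadjusted p under 0.05, 0 in DESeq2). The part of these cell types and regions in the Vim difference was not tested.

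Across all 65 libraries Vim and Nes were the closest pair of markers. With the mean of each batch removed from the log2 levels, their Pearson r was 0.80, and it was 0.83 in the 53 retained libraries. Such correlations are descriptions, since the libraries share dissection, depth and batch. The promoters of this pair are shown because both genes moved together across the libraries. They are the 250 bases before the RefSeq start in GRCr8, at chr17:81577011-81577260 for Vim and chr2:175736338-175736587 for Nes, both on the plus strand. Capitals mark matches to the TATA box, spelled TATAAA. They also mark the CCAAT box, spelled CCAAT on its own strand, and the GC box, spelled GGGCGG on its own strand. All 3 were searched on both strands, and a match on the other strand stands as its reverse complement.
Vim: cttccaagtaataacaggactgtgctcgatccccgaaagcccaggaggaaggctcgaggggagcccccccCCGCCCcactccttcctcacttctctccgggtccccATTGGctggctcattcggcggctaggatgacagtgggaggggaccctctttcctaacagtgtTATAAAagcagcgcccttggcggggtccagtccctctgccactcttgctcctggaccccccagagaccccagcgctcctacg
Nes: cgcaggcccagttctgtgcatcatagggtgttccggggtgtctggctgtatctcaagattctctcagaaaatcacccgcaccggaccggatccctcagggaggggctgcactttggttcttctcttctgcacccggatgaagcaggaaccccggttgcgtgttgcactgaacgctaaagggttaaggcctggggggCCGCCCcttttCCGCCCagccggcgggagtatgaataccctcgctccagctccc
In this window the Vim promoter held a TATA box, a CCAAT box in reverse and a GC box in reverse, and the Nes promoter held 2 GC boxes in reverse. Of 33469 promoters of the same length, 12.9% held TATAAA, 34.0% CCAAT and 30.5% GGGCGG on either strand, so the only match common to both promoters is a frequent one.

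The other pairs of markers had lower correlations. Rax and Gpr50 had an r of 0.60 (0.57 in the retained libraries), and Lhx2 and Crym an r of 0.49 (0.31). Rax had r = 0.50 with Nes and 0.46 with Vim, but 0.09 with Crym and 0.05 with Lhx2. Gpr50 ran opposite to Lhx2 at r = -0.50 over 65 libraries, and this fell to -0.21 in the retained 53. Crym and Vim had r = -0.23, which became 0.03.

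The markers differed in the region or cell type list they followed most closely, except that Vim and Nes shared theirs. Rax followed arcuate genes at r = 0.85, and 23 other tanycyte genes at 0.84, over 65 libraries, with the same values in the retained 53. With anterior pituitary genes its r was 0.66 over 65 libraries and 0.86 in the retained 53, where these were its nearest list. Gpr50 followed the hypothalamic genes (0.75) most closely over 65 libraries, but in the retained 53 arcuate genes were nearest (0.56), ahead of anterior pituitary (0.51) and hypothalamic genes (0.50). Lhx2 followed cortical genes (0.62, and 0.43), and Crym followed striatal genes (0.69, and 0.65). Vim and Nes followed meningeal genes, at r = 0.88 and 0.80, and endothelial genes at 0.74 for both, more closely than the other tanycyte genes, at 0.70 and 0.73.

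**Figure D3:**
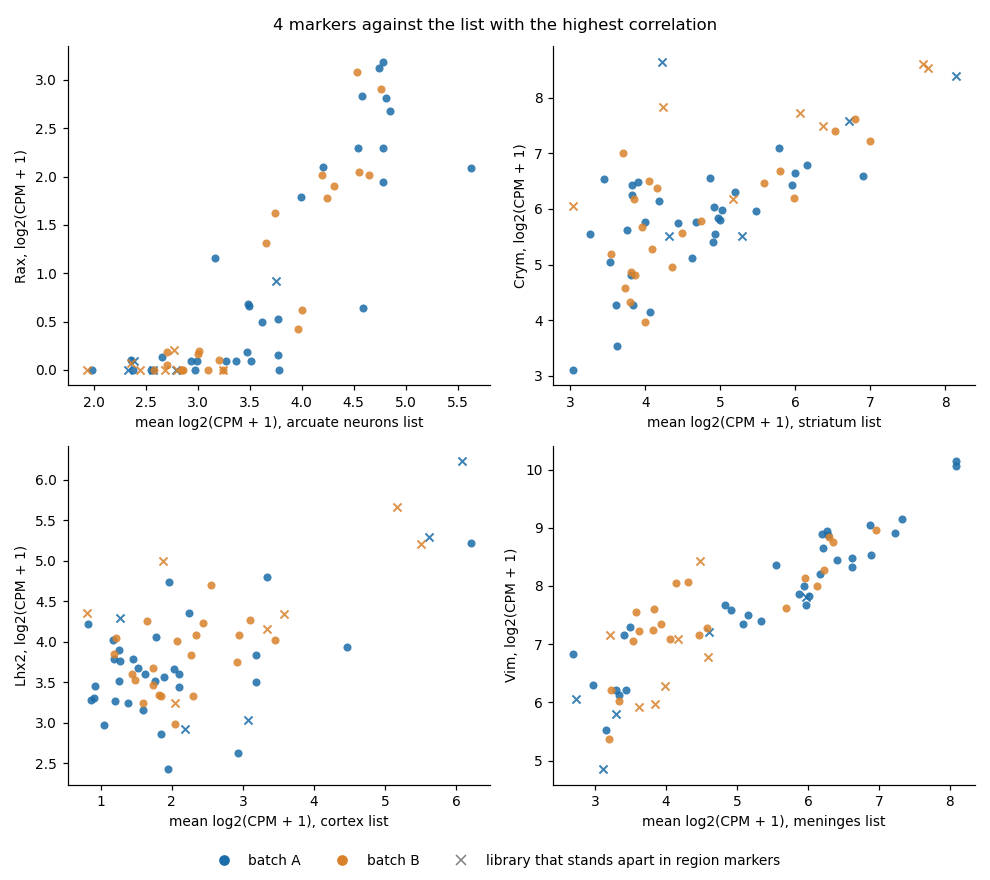
Level of a marker, as log2(CPM + 1), against the mean log2(CPM + 1) of the genes of a region or cell type list in each of 65 libraries: Rax with arcuate genes, Crym with striatal genes, Lhx2 with cortical genes and Vim with meningeal genes. The 12 libraries that stood apart are marked. Those with high striatal or cortical means carry much of the upper range of Crym and Lhx2.

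**Figure D4:**
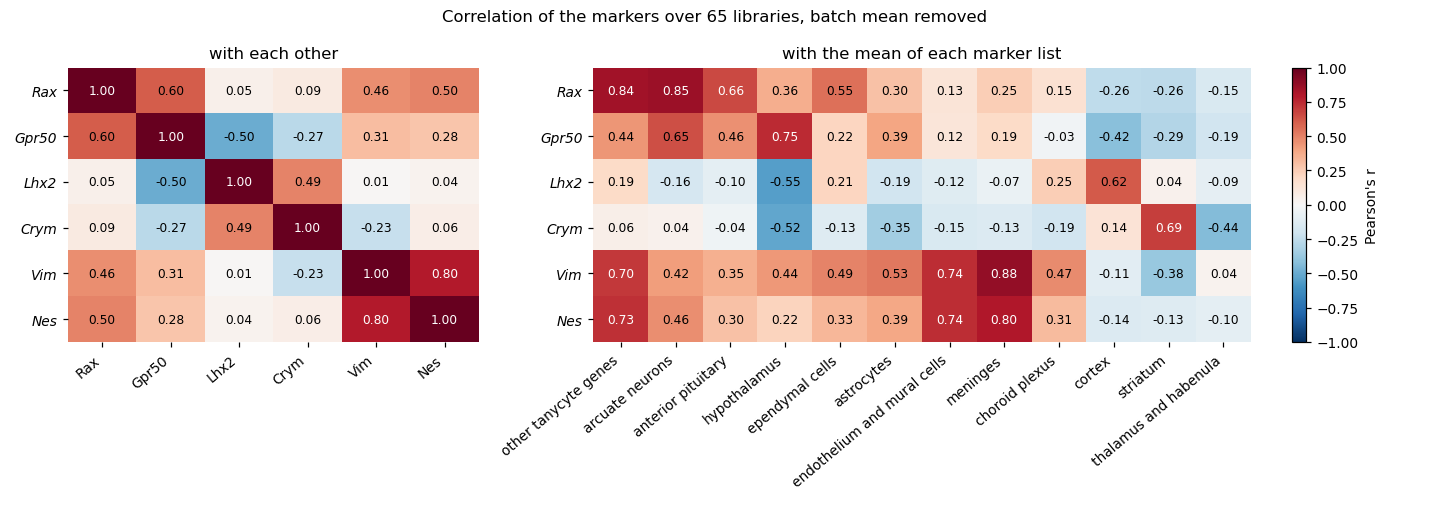
Pearson r across 65 libraries, batch means removed, among the 6 markers (left) and between each marker and 12 gene lists (right). Vim with Nes (0.80) and Rax with Gpr50 (0.60) are the only pairs above 0.5, and Vim and Nes share their strongest list, meninges.

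A search of 17234 genes gave each marker its closest companions by the same measure. Those of Rax were Dct (0.98), which encodes dopachrome tautomerase, RGD1561445 (0.95) and Galp (0.94), a galanin-like peptide of the arcuate nucleus and median eminence. Those of Gpr50 were Gabrq, Asb4 and Hmx3 (0.82 each), of which Gabrq encodes a GABA-A receptor subunit and Hmx3 a hypothalamic homeobox factor. Crym was closest to Ppp1r1b (0.84), which encodes DARPP-32 of striatal projection neurons and is also listed for tanycytes, followed by Smad3 and Fam124a (0.82 each). Vim was closest to Serping1 (0.96), the C1 inhibitor, Aebp1 (0.94) and Anxa1 (0.94). Lhx2 was closest to Ezr (0.81), Mfap3l (0.80) and Nck2 (0.78), and Nes to LOC100910255 (0.90), Emilin1 (0.88) and Dock6 (0.86).

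Other genes of tanycytes were followed through a list of 23 tested genes that does not hold the 6 markers. In RYGB vs. sham 3 of 23 were higher and 0 lower (edgeR), while 6.52% of all genes tested were higher, 19 of 23 had a positive estimate, and the median log2 fold change was 0.46 compared with -0.02 over all genes tested. The 3 were Lepr (1.39 ± 0.37, SE, adjusted p = 0.0115), the leptin receptor, Aldh1a1 (0.85 ± 0.28, adjusted p = 0.0377), an enzyme of retinoic acid synthesis, and Notch2 (0.57 ± 0.19, adjusted p = 0.0428), a receptor of glial progenitors. The list was chosen with the higher Lepr after RYGB already known, so the count of 3 is not independent of that choice. In this list, too, several members are expressed outside tanycytes, and 2 of 9 endothelial and mural genes were higher in the same comparison, Rgs5 at 0.73 and Cdh5 at 0.94, whose part was not tested. For the same comparison 1 of 7 choroid plexus genes passed, Kl at 2.47, and 0 genes passed in the lists of ependymal cells (10 genes, 0 at an unadjusted p under 0.05), astrocytes (10, 3), anterior pituitary (9, 2), striatum (6, 3), cortex (6, 0), thalamus and habenula (6, 1), arcuate neurons (7, 0) and hypothalamus (8, 0) in edgeR.

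Aldh1a1 measured 81.3 to 151 CPM in the 3 RYGB libraries of batch B against 17.7 to 68.6 CPM in the 6 sham libraries, and 31.8 to 161 against 23.7 to 57.1 CPM in batch A. Within batch B 0 of the 23 genes passed, beside 2.74% of all genes (edgeR). An unadjusted p under 0.05 in edgeR was reached by 7 of 23, and by 4769 of 21871 genes. Without the 12 libraries 1 of 23 was higher, Notch2 (0.67, adjusted p = 0.0431), whereas Lepr (1.17, adjusted p = 0.060) and Aldh1a1 (0.77, adjusted p = 0.121) were not (edgeR). DESeq2 called 5 of 23 higher with all libraries. With saline rats in place of sham rats as the control of RYGB, 0 of all genes tested were higher (edgeR). In BWM vs. sham 0 of 23 passed in edgeR, 5 had an unadjusted p under 0.05 and 1 passed in DESeq2, with 18 positive estimates and a median of 0.42 in edgeR. In RYGB vs. BWM 0 of 23 passed in either tool, and 4 had an unadjusted p under 0.05 in edgeR.

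**Figure D5:**
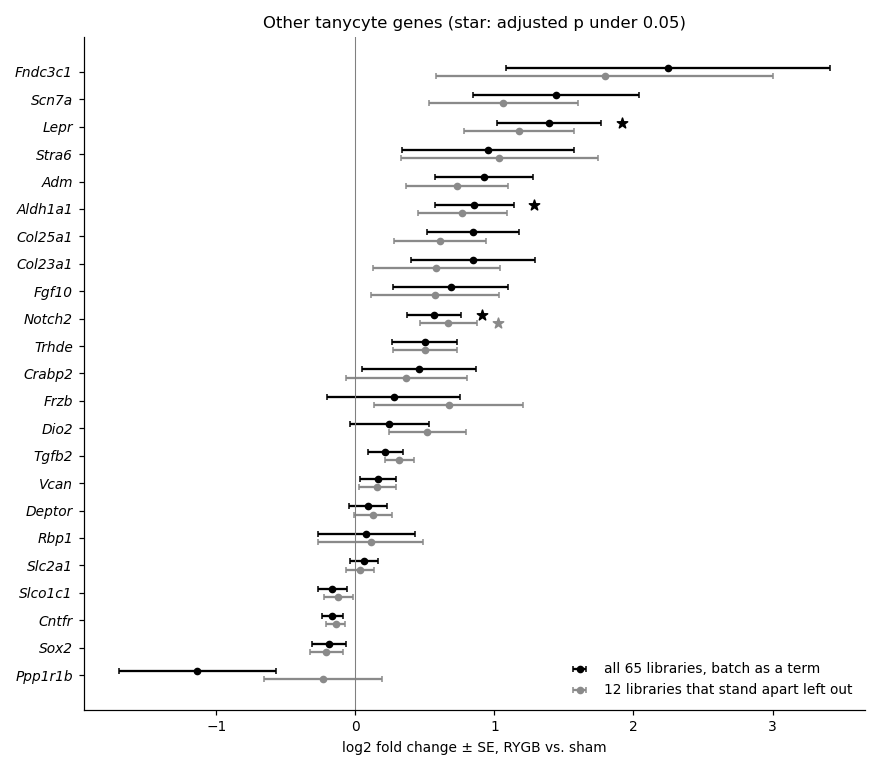
Log2 fold change of 23 other tanycyte genes for RYGB vs. sham, with all 65 libraries and with the 12 libraries that stood apart left out. Lepr, Aldh1a1 and Notch2 pass with all libraries, and Notch2 passes in both fits.

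The hormone arms and the lean rats were examined in the same model. For PYY3-36, liraglutide and their combination vs. saline, for lean vs. sham and for sham vs. saline, 0 of 6 markers passed in edgeR, 0 had an unadjusted p under 0.05, and 0 of 6 passed in DESeq2. Over all genes the share that passed was 0.00457% for the combination and 0.0137% for sham vs. saline in edgeR. It was 0% for PYY3-36 (1649 genes at an unadjusted p under 0.05 and 6 passing in DESeq2), for liraglutide (456 and 2) and for lean vs. sham (2674, and 20 higher and 9 lower). In each of these comparisons 0 of the 23 other tanycyte genes passed in either tool, with 0 to 5 at an unadjusted p under 0.05 in edgeR. Without the 12 libraries 0 of 6 markers passed and 0 had an unadjusted p under 0.05 in any of these 5 comparisons (edgeR), beside 0.00911% of all genes for sham vs. saline, 0.00456% for the combination and 0% for the others (906 genes at an unadjusted p under 0.05 for PYY3-36, 641 for liraglutide and 2479 for lean vs. sham). Vim held 432, 342, 282 and 307 CPM in the PYY3-36 libraries and 77.2, 196, 136, 254 and 143 CPM in the saline libraries of the same batch. These did not overlap, but in a comparison where 0.00457% of genes passed the log2 fold change of 1.08 ± 0.64 (SE) within batch B had an adjusted p = 0.539 (edgeR). Nes held 8.39, 7.07, 8.81, 8.50 and 6.86 CPM with the combination and 10.04, 8.87, 9.53, 10.4 and 12.5 CPM with saline in batch B. All 5 treated libraries lay below all 5 saline libraries, at a log2 fold change of -0.37 ± 0.36 (SE, adjusted p = 0.881, edgeR), in a comparison where 0.0137% of genes passed. For Vim and Nes alike, how many of all genes separate in the same libraries was not counted.

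The batches themselves differed widely, with 40.7% of all genes passing for batch B vs. A, but 0 of 6 markers passed and 0 had an unadjusted p under 0.05 (edgeR, adjusted p 0.308 to 0.906, 0 of 6 in DESeq2). With the 12 libraries left out 41.6% of genes passed, 0 of 6 markers passed and 0 had an unadjusted p under 0.05 (edgeR). Among the 23 other tanycyte genes 2 were higher in batch B and 5 lower, beside 19.3% and 21.4% of all genes, the lower ones including Lepr (-0.87) and Notch2 (-0.41). For the 3 changes of effect between batches that the design allows, 0 of 6 markers passed in each, and 1 of 6 had an unadjusted p under 0.05 in each (edgeR, 0 of 6 in DESeq2). The share of all genes that passed was 0.00457% for sham vs. saline and 0% for RYGB vs. sham (2268 genes at an unadjusted p under 0.05, 51 higher and 127 lower in DESeq2) and for the combination vs. saline (710, and 1 and 11).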

How the data were processed

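Hypothalamic RNA of 65 rats was sequenced as stranded poly-A libraries with single-end reads. Per the labels and the study's methods, the authors used bcl2fastq 2.20.0.422, trimmed with cutadapt (1.16 in the labels, with further versions in the methods), aligned with STAR 2.7.2b to Rnor_6.0 and counted on the RefSeq annotation with featureCounts 1.6.4. The deposited values are estimated counts, because reads that map to several places or overlap several genes were counted as fractions, and 30.3% of values above 0 were not whole (tolerance 1e-06). Such reads can split between genes, and values were not whole in 38 libraries for Nes, 2 for Crym and 1 for Lhx2.

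Counts were rounded to whole numbers, which changed library totals by at most 0.00104%. Genes were filtered with filterByExpr (minimum count 10, minimum total 15), leaving 21871, and tested with edgeR 4.0.16 in R 4.3.3 (TMM, robust quasi-likelihood test, group and batch terms, all 65 libraries, Benjamini-Hochberg adjustment over all genes, threshold 0.05). Within-batch values and changes between batches came from a model with 1 mean per group and batch. Levels are TMM-scaled CPM. DESeq2 1.42.0 was the other tool. The fits were tested on simulated data. Other alternatives were DESeq2 size factors, no filter on low counts, no batch term, a replicate block, another control group and leaving out each library in turn.

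Named genes are the 6 markers, the 23 other tanycyte genes (1 further gene of that list is not reported here and enters none of its counts), up to 4 passing genes of each other list and the 3 closest companions of each marker. The members and lists were chosen with earlier results of these data known, among them the higher Lepr after RYGB. Leaving out the 12 libraries that stood apart in region markers (hypothalamic sum under 10% of the median, or the pituitary-rich library) was chosen after seeing the data. The p-values measure the spread between rats. Replicate numbers of liraglutide and saline libraries deviated together (r from 0.321 to 0.611 over 5 pairs), as a feature of the data and not of the labels, and the fit with the number as a block also called 0 of 6 markers. Some of these pairs joined rats of different batches, and pairs with unlike numbers were not compared. Promoters come from RefSeq on GRCr8 and were matched by symbol. No genome of the files' build was used here.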

Additional observations from a re-analysis of the deposited data

Results flagged for a closer look

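For the 6 markers in 9 groups of 4 to 10 rats within a batch (54 tests), the highest or lowest library was compared with its neighbours by Dixon's test at the 95% level, which chance alone passes in about 1 of 20 tests, and 4 values stood out. Rax was 3.91 CPM in lean library 6 against 0 to 0.578 CPM in the other 5. It was 3.14 CPM in sham library 7 of batch B against 0 to 0.533 CPM, and 2.07 CPM in combination library 9 of batch B against 0 to 0.134 CPM. Lhx2 was 38.3 CPM in lean library 2 against 7.21 to 12.6 CPM, and this library is among the 11 with few hypothalamic transcripts.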

How the results depend on the processing

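Counts of passing markers were the same in 264 of 270 fits that left out 1 library and in 108 of 115 other settings. For RYGB vs. sham the count was 1 in DESeq2, 1 without a batch term (both Crym, adjusted p = 0.038 and 0.015) and 1 within batch A (Vim). It ran from 0 to 2 when 1 library was left out, reaching 2 without RYGB library 6 (Crym -1.39, adjusted p = 0.042, and Lhx2 -0.87, adjusted p = 0.044) and 1 without sham library 1, 3, 7, 8 or 9. For BWM vs. sham it was 1 within batch A and 2 there without the 12 libraries. Using the replicate number as a block gave 1 for batch B vs. A (Rax, -4.81, adjusted p = 0.027), and 5 pairs of markers in place of 2 had r over 0.5 once group means were removed too. The cause was not tested.

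Single estimates changed sign in 20 of 197 other settings and 16 of 403 fits without 1 library, and none of these passed. With the replicate block, RYGB vs. sham gave -2.17 for Rax and -0.079 for Gpr50, BWM vs. sham -3.22 and -0.011, and RYGB vs. BWM -0.068 for Gpr50 and 0.016 for Lhx2. Pairs by number had r from -0.398 to 0.339 for RYGB vs. sham, so those numbers name samples only, and the block changed no other count. Without the 12 libraries Lhx2 was 0.0063 for RYGB vs. sham and 0.04 for BWM vs. sham, and Crym 0.15 for RYGB vs. BWM. Within batch B, RYGB vs. sham gave -0.12 for Vim and -0.19 for Nes, and without the libraries apart -0.40, -0.25 and, for Lhx2, 0.16. Within batch A without them, RYGB vs. BWM gave -0.020 for Rax and 0.19 for Crym, and sham vs. saline -0.13 for Crym. With saline in place of sham, BWM gave -0.29 for Rax and 0.38 for Crym. With no filter, Lhx2 for RYGB vs. BWM was 0.0083. Leaving out 1 library moved BWM vs. sham from -0.47 to 1.22 for Rax and from -1.41 to 0.0065 for Crym, and RYGB vs. BWM from -0.21 to 0.28 for Lhx2, from -1.01 to 0.10 for Crym and from -0.51 to 0.30 for Vim. Rax held 3 counts or fewer in 35 libraries. Over all genes, exchanging the control groups gave 0 higher and 1 lower for RYGB in place of 1425 and 1428, and, against sham, 894 and 932 for PYY3-36 in place of 0, and 1456 and 1764 for the combination in place of 0 and 1.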
